A study of Mus musculus with 3 samples.

Results

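The genes described here are 8 receptor and ligand genes of trophic signalling out of 32285 genes measured in mouse retinal horizontal cells. They are 6 receptor tyrosine kinase genes (Alk, Ntrk2, Ntrk3, Ret, Erbb4 and Fgfr1) and 2 ligand genes (Ptn and Mdk). They were chosen by name and selected on measured values, the lower Alk level in older horizontal cells beside the other receptors and the levels in cells with and without a transcript of Vax2. Their levels by age and by Vax2 class are therefore given as description and carry no test. The cells came from Cx57icre;Ai14 mice, in which Cre made from the connexin 57 gene, active in horizontal cells of the retina, switches on the red reporter of Ai14. All 3 groups share this genotype and differ in age. Retinas were taken at postnatal day 6 (P6), day 8 (P8) or day 11 (P11), dissociated with papain and sorted by fluorescence, and each age gave 1 droplet library. How many animals entered a library is not given in the sources used here. With 1 library per age there is no replicate, an effect of age cannot be told apart from one of the library, and the 95% intervals below stand for counting error alone.

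In the droplet chemistry each captured RNA receives a unique molecular identifier (UMI) near its 3' end. A count is therefore a count of molecules, was not divided by gene length, and does not tell isoforms apart. Whether intron reads were counted is not given, and the age ratios moved with gene length, as described below. Horizontal cells were barcodes with at least 1000 genes, at most 10% mitochondrial UMIs and a UMI of at least 2 of Lhx1, Onecut1 and Onecut2. They numbered 7145 of 9896 barcodes in the P6 library, 3153 of 4635 in the P8 library and 4757 of 5517 in the P11 library, with 82305608, 62520239 and 103160766 UMIs and a median of 12161, 20671 and 22106 UMIs per cell. The summed level of 10 horizontal cell markers was 7663, 9396 and 13996 counts per 1000000 UMIs (CPM), against 7.08 to 10.5 CPM for 8 rod markers and at most 1.11 CPM for 6 cone markers. The 7 ganglion cell markers summed to 2033, 2282 and 1384 CPM, mostly Nefl and Sncg, the 7 amacrine markers to 522, 511 and 499 CPM, and the 8 Müller markers to 211, 201 and 298 CPM. Between 8 and 15 barcodes were shared by any pair of libraries.

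Receptor tyrosine kinases bind a secreted ligand outside the cell, pair up, and phosphorylate themselves and adaptor proteins that feed the Ras-MAP kinase and PI3 kinase cascades. ALK binds the ALKAL ligands, and the heparin-binding growth factors pleiotrophin (Ptn) and midkine (Mdk) have been tied to it and to the receptor phosphatase PTPRZ1. NTRK2 (TrkB) binds BDNF, NTRK3 (TrkC) binds neurotrophin-3, RET binds GDNF family ligands together with a GFRA co-receptor, ERBB4 binds neuregulins, and FGFR1 binds fibroblast growth factors. Such receptors act in survival, process growth and synapse formation of many neurons. Horizontal cells contact rod and cone terminals in the outer retina, and this wiring takes shape during the ages sampled.

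Alk was the most abundant of the 8 genes at P6 and stood far below Ret and Ntrk2 at P8 and P11. Its level was 257 CPM at P6 (interval 253 to 260), 37.7 CPM at P8 (36.2 to 39.3) and 13.7 CPM at P11 (13.0 to 14.4), from 21132, 2360 and 1411 UMIs. The 3 intervals did not overlap, and the order ran downward with age. Alk was 6.80-fold lower at P8 than at P6 (6.518 to 7.1003), 2.76-fold lower at P11 than at P8 (2.58 to 2.95) and 18.8-fold lower at P11 than at P6 (17.8 to 19.8), a log2 ratio of -4.23. The wider step was that between the P6 and P8 libraries. In the mouse build mm10 the gene covers chr17:71868972-72604627 on the minus strand, a span of 735.7 kb.

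Ret, the shared signalling receptor of the GDNF family, had no such loss. Its level was 194 CPM at P6 (191 to 197), 144 CPM at P8 (141 to 147) and 209 CPM at P11 (206 to 212). The P8 library was the lowest and the P11 library the highest, 1.08 times above P6 (1.06 to 1.10). Ntrk2, the BDNF receptor gene, stood at 183 CPM at P6, 86.8 CPM at P8 (84.5 to 89.1) and 132 CPM at P11. It was lowest at P8, where it was 2.10-fold lower than at P6 (2.04 to 2.17), and 1.52 times higher at P11 than at P8 (1.47 to 1.57), which left it 1.38-fold lower at P11 than at P6 (1.35 to 1.42). The P8 over P6 log2 ratio of Ntrk2, -1.07, was -0.80 with TMM factors, -0.76 with median-of-ratios size factors and -0.94 in cells thinned to 3000 UMIs, so the 2-fold limit was then not reached. Ret covers chr6:118151745-118197718 (46.0 kb, minus strand) and Ntrk2 covers chr13:58806569-59133970 (327.4 kb, plus strand).

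The sequences before Ntrk2 and Erbb4 are shown because, of the 8 genes, only these were in the promoter table without overlapping their own exons. Each is the 250 bases before the start that RefSeq's promoter table gives on GRCm38.p6, 5' to 3' on the gene's strand, and overlaps no exon of its gene in the GENCODE annotation. The Ntrk2 window is chr13:58806319-58806568 on the plus strand and the Erbb4 window is chr1:69108060-69108309 on the minus strand. Capitals mark the ETS core CCGGAA, on either strand.
Ntrk2: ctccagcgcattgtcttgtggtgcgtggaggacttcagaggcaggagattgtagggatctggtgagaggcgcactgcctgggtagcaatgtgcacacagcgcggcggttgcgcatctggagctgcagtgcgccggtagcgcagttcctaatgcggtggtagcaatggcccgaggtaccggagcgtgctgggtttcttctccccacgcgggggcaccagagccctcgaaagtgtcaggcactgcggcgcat
Erbb4: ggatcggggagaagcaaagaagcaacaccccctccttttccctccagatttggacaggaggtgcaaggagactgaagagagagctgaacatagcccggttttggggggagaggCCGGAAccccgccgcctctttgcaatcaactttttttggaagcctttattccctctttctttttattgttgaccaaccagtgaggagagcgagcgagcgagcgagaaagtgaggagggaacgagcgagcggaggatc
The Ntrk2 window held 19 CpG and was 62.8% G or C, and the Erbb4 window held 12 CpG and was 54.0% G or C, against a median of 6 CpG over 32851 promoters. On either strand, CCGGAA occurred in 12.03% of all windows, the Onecut cores ATCGAT and ATCAAT in 0.728% and 6.72%, and the homeodomain core TAATTA in 4.84%. Of these motifs, which do not overlap as searched, Erbb4 held CCGGAA once and Ntrk2 held none. Of the 8 genes 4 were in the table. The RefSeq windows of Alk and Ptn lie with 250 and 41 of their bases inside an exon of the same gene in GENCODE, which places the start farther upstream, and are not shown.

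The remaining receptors were scarce in horizontal cells at every age. Ntrk3, the neurotrophin-3 receptor gene, was at 9.06 CPM at P6 (8.43 to 9.74), 1.28 CPM at P8 (1.01 to 1.59) and 0.795 CPM at P11 (0.632 to 0.987). The intervals of P8 and P11, on 80 and 82 UMIs, lay close together without overlap, and both lay far under P6. Erbb4, the neuregulin receptor gene, was at 4.91 CPM at P6 (4.44 to 5.41), 1.65 CPM at P8 (1.35 to 1.998) and 2.49 CPM at P11 (2.20 to 2.82). It was lowest at P8, as Ret and Ntrk2 were. Fgfr1 was at 4.98 CPM at P6 (4.51 to 5.49), 2.54 CPM at P8 (2.16 to 2.97) and 2.35 CPM at P11 (2.06 to 2.66), with P8 and P11 overlapping. The genes cover chr7:78175959-78738012 (Ntrk3, 562.1 kb), chr1:68032186-69108059 (Erbb4, 1075.9 kb), both on the minus strand, and chr8:25513654-25575718 (Fgfr1, 62.1 kb, plus strand).

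Both ligand genes were low and lowest at P11. Ptn, encoding pleiotrophin, was at 9.91 CPM at P6 (9.25 to 10.6), 6.96 CPM at P8 (6.32 to 7.64) and 1.72 CPM at P11 (1.47 to 1.99). Its wider step was that from P8 to P11 (4.06-fold, 3.397 to 4.86), unlike Alk. Mdk, encoding midkine, was at 3.18 CPM at P6 (2.81 to 3.59), 0.528 CPM at P8 (0.363 to 0.741) and 0.223 CPM at P11 (0.141 to 0.335), from 262, 33 and 23 UMIs. Ptn covers chr6:36714929-36810220 (95.3 kb) and Mdk chr2:91929805-91932297 (2.49 kb), both on the minus strand. The ALKAL ligand gene Alkal2 was at 0.304, 0.192 and 0.233 CPM, and Ltk, the closest relative of Alk, at 0.109, 0.0480 and 0.0194 CPM.

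**Figure D1:**
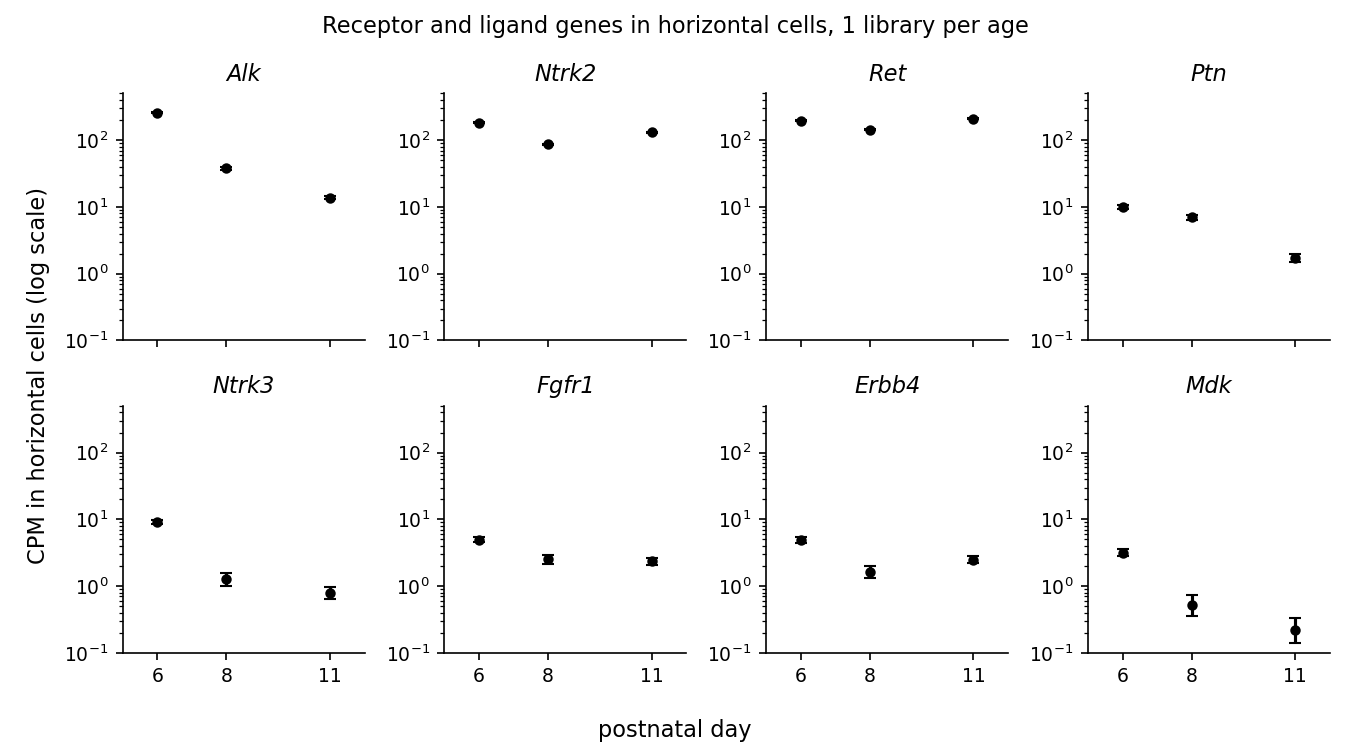
Level of each of the 8 genes in horizontal cells (CPM, log scale) against postnatal day, 1 library per age, with exact Poisson 95% intervals. Alk runs from 257 to 13.7 CPM, whereas Ret stays between 144 and 209 CPM and Ntrk2 between 86.8 and 183 CPM.

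Counts over all genes took in those that reached 20 CPM at the higher of the ages compared, and a gene was called lower or higher from a 2-fold ratio upward. Alk, Ntrk2 and Ret passed this minimum in all 3 comparisons, and the other 5 genes in none. From P6 to P11, 1 of the 3 was lower (Alk) and none was higher, where 4.71% of 7161 genes were lower and 2.36% higher. From P6 to P8, Alk and Ntrk2 were lower, beside 8.55% of 7067 genes, and none was higher, beside 1.73%. From P8 to P11, Alk alone was lower, beside 0.975% of 6770 genes, and none was higher, beside 2.04%. These contrasts chose the genes, so nothing is read from the shares. The split of all genes moved with the scaling: 122 higher and 604 lower for P8 over P6 became 334 and 291 with TMM factors or 396 and 258 with median-of-ratios size factors, and 138 higher and 66 lower for P11 over P8 became 98 and 88, or 86 and 94. For P11 over P6, 169 higher and 337 lower became 274 and 224, or 271 and 222.

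Among the 58 receptor tyrosine kinase genes of a fixed list, 16 passed the minimum for P11 over P6, and Alk had the lowest ratio of them and the 11th lowest of the 7161 genes. The lower Alk level beside other receptors was part of the selection, so its rank is description only. Of the 16, 4 were at least 2-fold lower and none was higher, and their median log2 ratio was -0.12 against -0.08 over all genes tested. Beside Alk these were Ephb2, an ephrin-B receptor, at 53.3, 16.7 and 15.3 CPM at P6, P8 and P11, Fgfr2 at 264, 108 and 85.0 CPM, and Epha5, an ephrin-A receptor, at 129, 66.6 and 62.8 CPM. In all 3 genes the P8 level was nearer to the P11 level than to the P6 level. Alk was 2.76-fold lower at P11 than at P8, whereas Ephb2 was 1.09-fold, Epha5 1.06-fold and Fgfr2 1.27-fold lower. Fgfr2 was the most abundant receptor tyrosine kinase gene of the list at P6. Its annotated span of 2961 kb takes in other genes, so its reads are less certain. From P6 to P8, 5 of 15 were lower and none higher (median -0.71, against -0.14), and from P8 to P11, 1 was lower and 2 were higher (median 0.42, against 0.07). With TMM factors 4 were lower for P8 over P6, and with median-of-ratios size factors 2 were. With either scaling P11 over P6 had 3 lower, since Epha5 (-1.04, then -0.84) was no longer 2-fold apart, and 1 higher, Epha7.

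**Figure D2:**
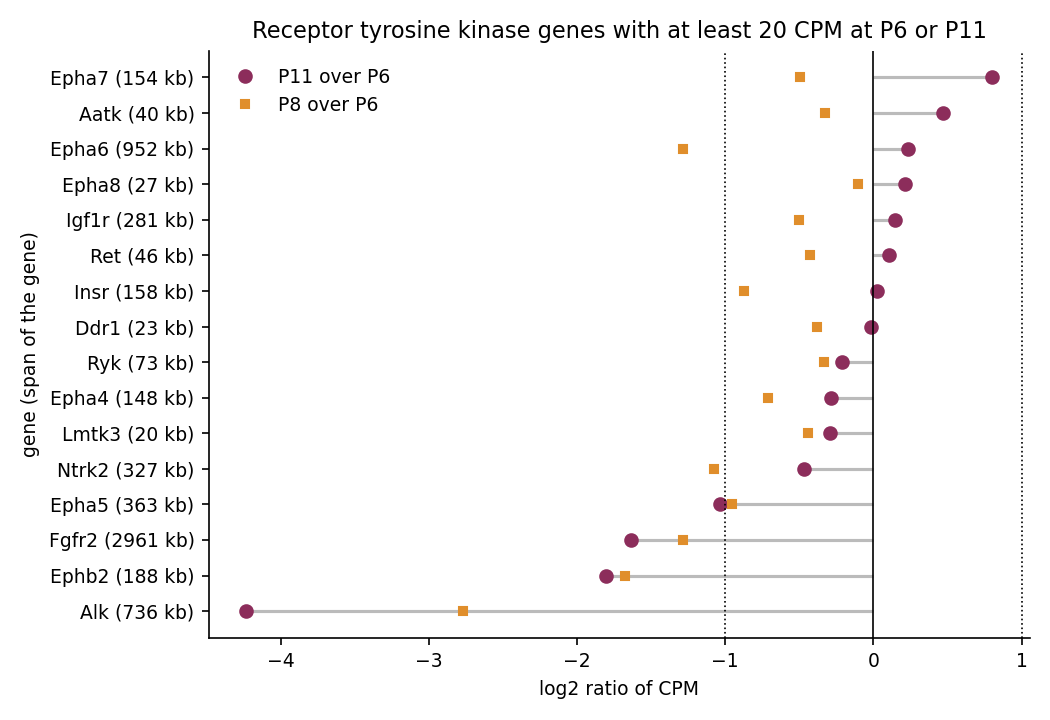
Log2 ratio of CPM at P11 over P6 (circles) and P8 over P6 (squares) for the 16 receptor tyrosine kinase genes with at least 20 CPM at P6 or P11, with each gene's annotated span in brackets. Dotted lines mark 2-fold, and Alk at -4.23 lies apart from the next gene, Ephb2 at -1.80.

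Length of the gene moved with the age ratios. The tested genes were put in 5 groups by span. In the longest group (1444 genes, median 162.7 kb) the median log2 ratio was -0.73 for P8 over P6, -0.29 for P11 over P6 and 0.43 for P11 over P8. In the shortest group (1443 genes, median 4.82 kb) it was 0.27, 0.03 and -0.26. Long genes were thus lowest in the P8 library, the order that Ntrk2 and Erbb4 had. Alk was lower at P11 than at P8, as Ntrk3, Ptn and Fgfr2 also were. Among 151 genes that span at least 500 kb the medians were -1.34, -0.70 and 0.64. For P11 over P6, Alk was at -4.23 and Dpp10, a gene of 724.1 kb, at -4.04. Malat1, a nuclear RNA, was at 20337, 15319 and 21409 CPM. The part of gene length or nuclear RNA in the Alk values was not tested.

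Within each library the cells were parted at the median share of Malat1. Alk was at 321 CPM in cells above and 180.5 CPM in cells below the median at P6, 53.7 and 21.9 CPM at P8, and 16.1 and 11.0 CPM at P11. The order by age was the same in both parts of the cells. Each library was cut at its own median, so the parts are not matched in Malat1 between ages. Ntrk2 was also higher in the cells with more Malat1 (205 against 157, 104 against 70.2 and 146 against 116 CPM). Ret was at 192 against 197, 149 against 139 and 199 against 221 CPM, without a constant order.

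The share of cells with an Alk UMI had the same order by age at equal depth. After each cell was thinned to 3000 UMIs, which left out 377, 97 and 90 shallower cells, an Alk UMI was found in 41.8% of P6 cells (40.7 to 43.0), 9.52% of P8 cells (8.504 to 10.6) and 3.69% of P11 cells (3.16 to 4.27). Without thinning the shares were 69.9%, 37.3% and 16.9%. Ntrk2 was found in 40.1%, 23.2% and 33.3% of thinned cells, and Ret in 42.9%, 36.6% and 47.1%. At this depth Alk, Ntrk2 and Ret were met in nearly equal shares of cells at P6 and in unlike shares at P11. At 5000 UMIs the P6 shares were 53.5%, 55.9% and 61.7%, and with all UMIs 69.9%, 78.6% and 81.5%. Ptn was found in 2.76%, 2.36% and 0.471% of cells, Ntrk3 in 2.47%, 0.524% and 0.236%, Fgfr1 in 1.48%, 0.687% and 1.03%, Erbb4 in 1.34%, 0.622% and 0.879%, and Mdk in 0.975%, 0.164% and 0.0643%.

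Free RNA in droplets also gives UMIs, so the shares were set beside barcodes that held at least 3 rod markers and fewer than 2 of the horizontal cell genes. There were 47, 43 and 41 of these, with median depths of 1903, 2382 and 1999 UMIs. Thinned to 1000 UMIs, Alk was found in 20.6%, 4.03% and 1.30% of horizontal cells and in 1 of 47, 0 of 43 and 0 of 41 rod-marker barcodes, where a count of 0, read as 3 counts of the total, allows up to 6.98% at P8 and 7.32% at P11. Ret was found in 17.7%, 14.1% and 19.0% of horizontal cells and in 3, 0 and 0 of the rod-marker barcodes. Ntrk2 was found in 16.7%, 8.53% and 12.7% and in 1, 3 and 0 barcodes. The 3 of 43 barcodes at P8 are 6.98% (1.46 to 19.1), an interval that takes in the Ntrk2 share of horizontal cells. At this depth the P8 and P11 shares of Alk, and the shares of Ptn, Mdk, Ntrk3, Erbb4 and Fgfr1 at every age, lay under the background that so few rod-marker barcodes could show.

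Cells differed more in Alk than in Ret. At 3000 UMIs the variance of the Alk count over its mean was 1.82, 1.38 and 1.17 in the P6, P8 and P11 libraries, where independent capture of equal cells gives a value near 1. For Ret it was 1.06, 1.04 and 1.03, and for Ntrk2 1.11, 1.13 and 1.001. At P6, 7.73% of cells held 3 or more Alk UMIs, against 0.295% at P8 and 0.0214% at P11. Both the share of cells with a UMI and the number of UMIs per cell were thus lower for Alk at the later ages.

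**Figure D3:**
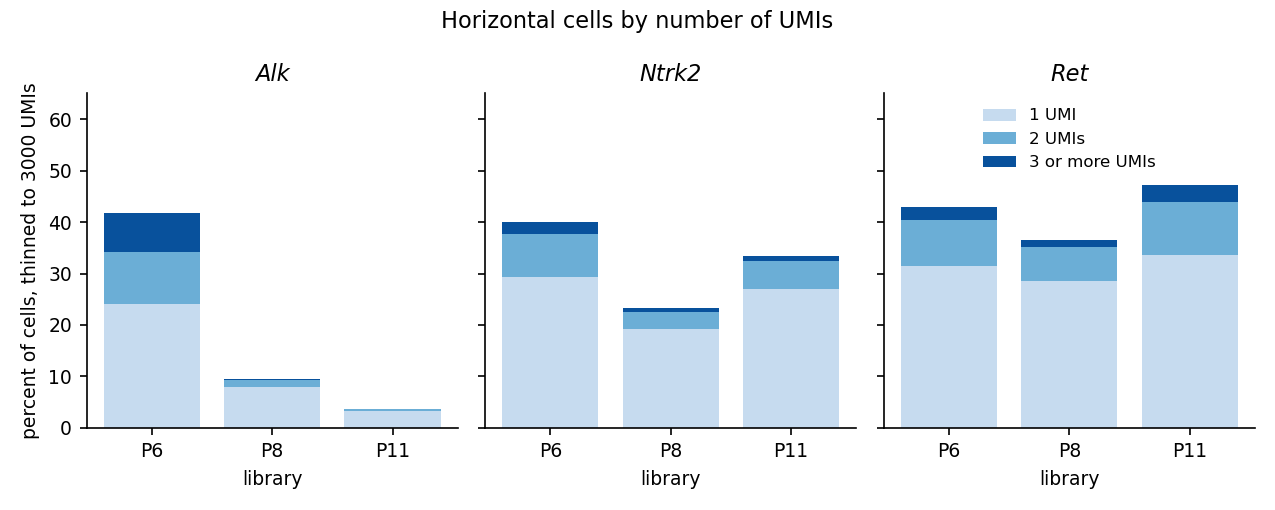
Percent of horizontal cells with 1, 2 or at least 3 UMIs of Alk, Ntrk2 and Ret in each library, after thinning to 3000 UMIs. The Alk bars go from 41.8% to 3.69% in total, and the Ret bars stay between 36.6% and 47.1%.

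At P11 the UMIs of Alk and of some scarce genes were unevenly spread over cells. With all UMIs counted, 36 of 4757 cells at P11 held 5 or more Alk UMIs and 286 of the 1411 in the library, and the level of the other cells was 11.0 CPM. Of those 36 cells, 12 had UMIs of at least 3 amacrine markers, where 25.7% of all P11 horizontal cells did, and 18 had UMIs of at least 3 Müller markers, where 32.6% of all did. Their median depth was 28752 UMIs against 22106. Horizontal cells at P11 carried some of these markers throughout, with Slc32a1 at 238, Pax6 at 245 and Glul at 196 CPM. A deeper cell passes 3 markers more readily, so these counts cannot tell RNA of another class from depth. For Ntrk3 at P11, 4 cells held 36 of the 82 UMIs, and the level without them was 0.447 CPM. These cells had a median of 37095 UMIs, far above the library's. For Ptn at P11 2 cells held 25 of 177 UMIs, and for Erbb4 4 cells held 40 of 257. No P11 cell held 5 UMIs of Mdk or Fgfr1. Whether such cells are doublets was not tested. The limit of 5 UMIs was chosen after the values were seen.

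A Ntrk2 UMI was found in a larger share of cells with than without an Alk UMI at P6 and P8. Among thinned cells with an Alk UMI, 44.8% had a Ntrk2 UMI at P6 (42.9 to 46.6), against 36.7% of cells without Alk (35.2 to 38.2). At P8 the shares were 31.3% (26.0 to 36.9) and 22.4% (20.8 to 24.0), and at P11 32.6% (25.6 to 40.1) and 33.3% (32.0 to 34.7), which overlap. Ret showed a smaller spread at P6, 43.2% against 42.7%, and P8, 38.8% against 36.3%, and at P11 55.8% (48.1 to 63.4) against 46.8% (45.3 to 48.3), intervals that meet at their ends. The co-receptor gene Gfra2 was found in 51.3% of cells with and 52.0% of cells without a Ret UMI at P6, and in 53.7% and 53.5% at P11. Cells of a library share its free RNA, so these shares describe single libraries. Alk and Ntrk2 were both higher in cells with more Malat1 in each library, whereas Ret had no constant order. The part of this in the shares was not tested.

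At P6 Alk was lower in cells with a UMI of Mgarp, a mitochondrial protein gene at 160, 2641 and 5433 CPM in the 3 libraries. In P6 cells with a Mgarp UMI at 3000 UMIs (2051 cells) Alk was at 199.6 CPM, and in those without (4717 cells) at 264 CPM, a ratio of 0.756 (0.709 to 0.807). Ret had a ratio of 0.982 (0.916 to 1.05) and Ntrk2 of 0.896 (0.833 to 0.964). Ntrk3 had a ratio of 0.643 (0.441 to 0.919) and Fgfr1 of 0.596 (0.350 to 0.973), on 40 and 21 UMIs in cells with Mgarp. Their intervals took in that of Alk. Those of Ptn, Mdk and Erbb4 took in equal levels. The neuregulin gene Nrg1 was also lower, with a ratio of 0.825 (0.794 to 0.857). A lower level in cells with Mgarp was thus not particular to Alk. The calcium-binding protein gene Calb1, a horizontal cell marker at 702, 1714 and 2952 CPM by age, was at 622 CPM in P6 cells with an Alk UMI and 743 CPM in those without. At P6, the youngest age, cells with less of these genes thus had more Alk.

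The genes whose pattern over the 3 libraries was most like that of Alk were found by the distance between their P8 over P6 and P11 over P8 log2 ratios and those of Alk, among 3826 genes with at least 50 CPM at P6. Kcnq3, a potassium channel subunit gene, was nearest (distance 0.29), at 153, 19.4 and 8.04 CPM. Dpp10, encoding an auxiliary protein of A-type potassium channels, followed (0.34), at 62.4, 11.4 and 3.78 CPM. Mir670hg, a microRNA host transcript (0.48), Gria1, an AMPA receptor subunit gene (0.52), and 9630014M24Rik (0.59) came next. In P6 cells with an Alk UMI, Dpp10 was 1.68 times (1.499 to 1.88), Gria1 1.45 times (1.30 to 1.62) and Kcnq3 1.20 times (1.12 to 1.29) its level in cells without. The ratios of Mir670hg and 9630014M24Rik are not given here.

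Other partners of each receptor were taken from fixed lists. In the list of Alk and pleiotrophin partners 4 of 13 genes passed the minimum for P11 over P6, and Alk was the 1 lower, with none higher (median log2 ratio -0.59). Ptprz1, the receptor phosphatase for pleiotrophin, was at 48.2, 29.4 and 35.6 CPM. The heparan sulfate carrier gene Sdc3 was at 22.7, 13.4 and 13.6 CPM. A further 7 genes of this list stayed under 5 CPM at every age.

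In the neurotrophin system 4 of 13 genes passed the minimum, with 1 lower and none higher (median -0.36). The lower one was Sorcs2, a sorting receptor for proneurotrophins, at 31.2, 9.25 and 11.1 CPM. Sort1, encoding sortilin, was at 107, 85.4 and 112 CPM. Bdnf itself was at 1.76 CPM at P6 (1.49 to 2.07), 3.26 CPM at P8 (2.83 to 3.74) and 4.47 CPM at P11 (4.07 to 4.90), under the minimum and with an order opposite to that of Alk. Its 3 intervals did not overlap.

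In the GDNF system 5 of 12 genes passed the minimum, and none was 2-fold apart (median 0.11). The co-receptor genes Gfra1 and Gfra2, which present GDNF and neurturin to RET, had the order of Ret. Gfra1 was at 135 CPM at P6, 98.9 CPM at P8 and 152 CPM at P11. Gfra2 was at 246 CPM, 185 CPM and 260.5 CPM. Gfra4 was at 45.3, 52.1 and 74.0 CPM. The ligands were scarce: Nrtn, encoding neurturin, was at 1.31, 1.63 and 1.88 CPM, and Gdnf was at 0.0243 CPM at P6 and had no UMI at P8 or P11.

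In the neuregulin and ErbB system 2 of 15 genes passed the minimum for P11 over P6, neither 2-fold apart (median -0.21). Nrg1, a neuregulin gene, was at 692 CPM at P6 (686 to 698), 261 CPM at P8 (257 to 265) and 958 CPM at P11 (952 to 964). The ligand gene was thus abundant in the cells where its receptor gene Erbb4 was at 1.65 to 4.91 CPM. In the FGF system 3 of 21 genes passed, with 1 higher and 1 lower (median -0.16). Fgf1 was the higher, at 27.7, 35.0 and 77.4 CPM, and Fgfr2 the lower. Fgfr2 exceeded Fgfr1 at every age.

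Downstream of the receptors, 27 of 29 adaptor and cascade genes and 6 of 9 feedback genes that passed the minimum were within 2-fold from P6 to P11. Of all 7161 genes tested, 4.71% were at least 2-fold lower and 2.36% higher, so most genes were within 2-fold. Of 41 adaptor and kinase cascade genes, 29 passed the minimum, 2 were lower and none higher from P6 to P11 (median -0.18). Shc3, a neuronal adaptor of receptor tyrosine kinases, was at 23.0, 5.61 and 1.27 CPM, 18.1-fold lower at P11 than at P6, and Nras was at 57.5, 31.9 and 27.6 CPM (log2 ratio -1.06). Of 31 feedback and early response genes, 9 passed, with 2 lower and 1 higher (median -0.38). Vgf, a neuropeptide precursor gene known as a neurotrophin target, was at 41.8, 13.0 and 3.44 CPM, and Spred2, an inhibitor of the Ras cascade, at 35.6, 15.1 and 16.8 CPM (log2 ratio -1.08). With TMM factors Nras (-0.86) and Spred2 (-0.88) were no longer 2-fold lower, and the median-of-ratios scaling gave the same. Dusp10, a phosphatase gene for stress kinases, was at 10.2, 22.5 and 50.6 CPM.

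Barcodes outside the horizontal cells carried some of the same genes at far higher levels, counted in barcodes with fewer than 2 horizontal cell genes and at least 3 markers of another class. Ptn was at 1638 CPM (1421 to 1878) in 42 Müller-marker barcodes at P6 and 2552 CPM (2151 to 3006) in 13 at P11, and Mdk at 313 and 268 CPM there. In horizontal cells the Müller glia genes Rlbp1, Slc1a3 and Sox9 were at 1.15, 1.21 and 0.632 CPM at P6. At P11 they were at 0.572, 0.310 and 0.0969 CPM. Other genes of the same marker list were higher. Glul was at 122 CPM at P6 and 196 CPM at P11, and Clu at 45.6 and 59.2 CPM. Dkk3 was at 32.4 and 32.9 CPM, Apoe at 4.82 and 2.14 CPM, and Aqp4 at 3.06 and 6.95 CPM. The part of free glial RNA in the low Ptn and Mdk levels was not tested.

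Ntrk3 was at 140 CPM (56.5 to 289) in 14 amacrine-marker barcodes at P6, 94.2 CPM in 14 at P8 and 119 CPM in 17 at P11. In horizontal cells the amacrine gene Gad2 was at 6.42, 1.81 and 0.785 CPM and Slc6a9 at 0.510, 0.144 and 0.242 CPM. Tfap2a of the same list was at 11.2, 10.1 and 14.7 CPM, and most of the marker sum was Slc32a1 and Pax6. The part of amacrine RNA in the Ntrk3 values was not tested. Alk in amacrine-marker barcodes rested on 1, 4 and 14 UMIs, or 20.1, 41.9 and 119 CPM. At P11 its interval there (65.01 to 199.5) lay above the level in horizontal cells, with the 14 UMIs coming from 3 of the 17 barcodes. Erbb4 was at 193, 137 and 180 CPM in 30, 16 and 33 bipolar-marker barcodes, with its UMIs coming from 6, 2 and 6 of them. In rod-marker barcodes it was at 99.3 CPM at P6, from 2 barcodes, and 102 CPM at P11, from 1 barcode. It had no UMI there at P8.

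**Figure D4:**
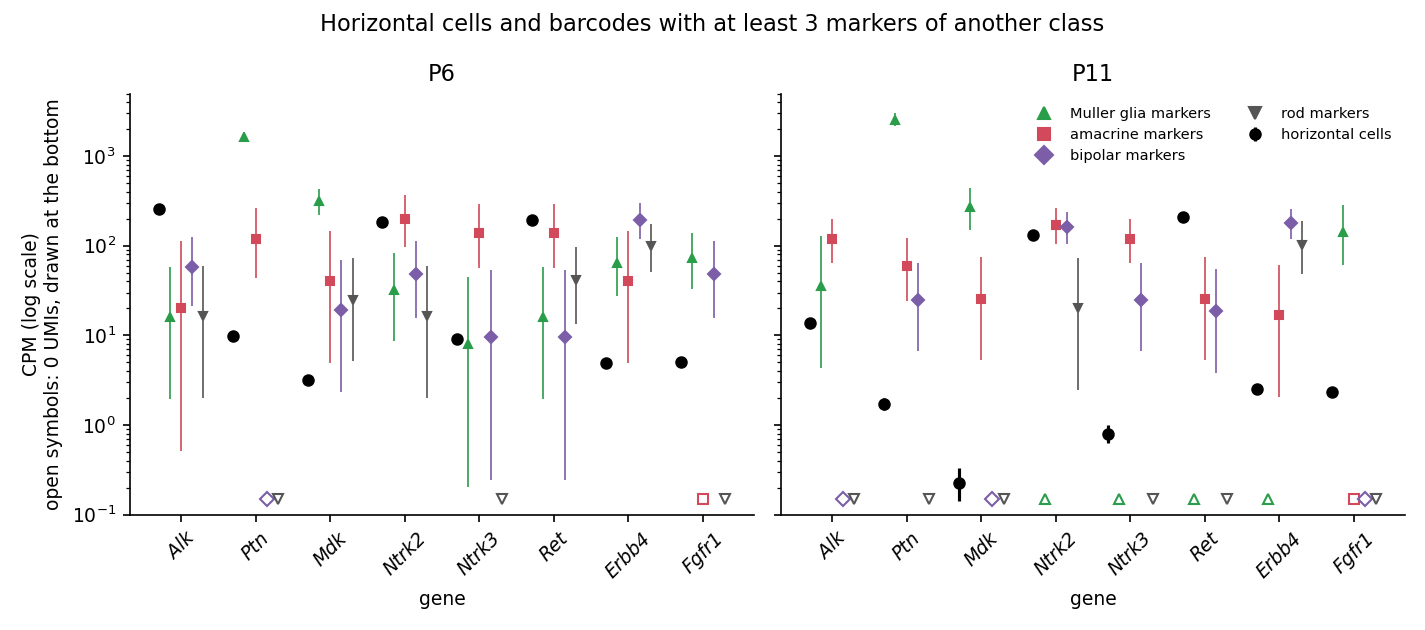
Level of each gene (CPM, log scale) in horizontal cells and in barcodes with at least 3 markers of another class, at P6 and P11, with exact Poisson 95% intervals and open symbols for 0 UMIs. Ptn and Mdk are highest in Müller-marker barcodes, and Ret is higher in horizontal cells than in these other barcodes at P11.

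Vax2 is a homeobox gene of the ventral retina, and horizontal cells were parted by whether they held a Vax2 UMI. Those with one numbered 2255, 1039 and 1463, or 31.6%, 33.0% and 30.8%. They were somewhat deeper, with medians of 13644 against 11184, 21309 against 20337 and 22852 against 21808 UMIs. Alk was at 245 CPM in Vax2-positive and 264 CPM in Vax2-negative cells at P6 (ratio 0.930, 0.904 to 0.957), 30.6 and 41.7 CPM at P8 (0.734, 0.671 to 0.803), and 12.9 and 14.1 CPM at P11 (0.917, 0.818 to 1.03). The positive cells were lower in all 3 libraries, by less than the ages differ, and the P11 interval took in 1. The loss of Alk with age was thus seen in both classes.

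Ntrk2 was lower in the positive cells of each library, at 173 against 188, 79.9 against 90.7 and 128 against 134 CPM. With status and counts from cells thinned to 3000 UMIs it was at 137 against 135 CPM at P11, a ratio of 1.02 (0.836 to 1.22). Ret was at 192 against 195, 137 against 148 and 205 against 211 CPM, ratios of 0.981, 0.924 and 0.972. Ptn was at 8.87 against 10.5, 4.95 against 8.08 and 1.93 against 1.61 CPM, and its P11 ratio of 1.20 (0.868 to 1.64) took in 1. Ntrk3 was at 9.23 against 8.97 CPM at P6 and was 4.10 times higher in the positive cells at P11 (1.61 against 0.392 CPM, 2.54 to 6.76). All 4 P11 cells with 5 or more Ntrk3 UMIs were Vax2-positive and held 36 of the 55 UMIs of that class. The intervals of Mdk, Erbb4 and Fgfr1 took in equal levels in every library.

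The same contrast was tested for the other genes of the fixed lists with edgeR's quasi-likelihood test on counts summed per library and class, with the library as a term and Benjamini-Hochberg adjustment over 14647 genes. Of 122 list genes 1 was higher and 9 were lower in Vax2-positive cells, where 1.13% of all genes tested were higher and 2.62% lower. The lists were chosen with earlier results of these data known, so nothing is read from these counts or those by list below. Etv1, an ETS transcription factor gene, had the widest difference among them, at 2.16 against 7.58 CPM at P6, 1.87 against 7.61 at P8 and 1.05 against 5.66 at P11. It was lower in 3 of 3 libraries, with a log2 ratio of -2.04 (SE 0.12, edgeR adjusted p = 8.01703e-10). Etv1 kept its call in all 8 alternatives that retained the library term, with adjusted p of at most 0.0045.

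Ptprz1 was lower in the positive cells, at 43.4 against 51.1, 22.0 against 33.5 and 28.1 against 39.3 CPM (log2 ratio -0.40, SE 0.048, edgeR adjusted p = 1.44471e-05). The call ended without the P8 library (adjusted p = 0.0587) and after thinning to 3000 UMIs (adjusted p = 0.487). Pik3r1, a regulatory subunit gene of PI3 kinase, was at 37.1 against 46.9, 29.9 against 39.5 and 23.7 against 31.0 CPM (log2 ratio -0.36, edgeR adjusted p = 1.54947e-06). Phlda1 was the higher one, at 53.6 against 50.2, 66.5 against 55.6 and 78.9 against 71.9 CPM (log2 ratio 0.17, edgeR adjusted p = 0.0059). The Phlda1 call ended without the P8 library (adjusted p = 0.230), after thinning (0.781) and with DESeq2 (0.0937).

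By list, 1 of 6 tested Alk and pleiotrophin partners was lower, 0 of 6 neurotrophin genes, 1 of 5 GDNF genes, 1 of 9 neuregulin and ErbB genes, 1 of 6 FGF genes, 2 of 26 receptor tyrosine kinases, 2 of 41 adaptor and cascade genes and 2 of 25 feedback genes. Phlda1, of the feedback genes, was the 1 higher. Median log2 ratios of the lists lay between -0.08 and 0.02, against 0.0047 over all genes. Without the library term edgeR passed 0 of the 14647 genes (5 higher and 36 lower at an unadjusted p under 0.05), and DESeq2 with the term passed 64 higher and 162 lower. Vax2 itself made the classes and was left out.

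**Figure D5:**
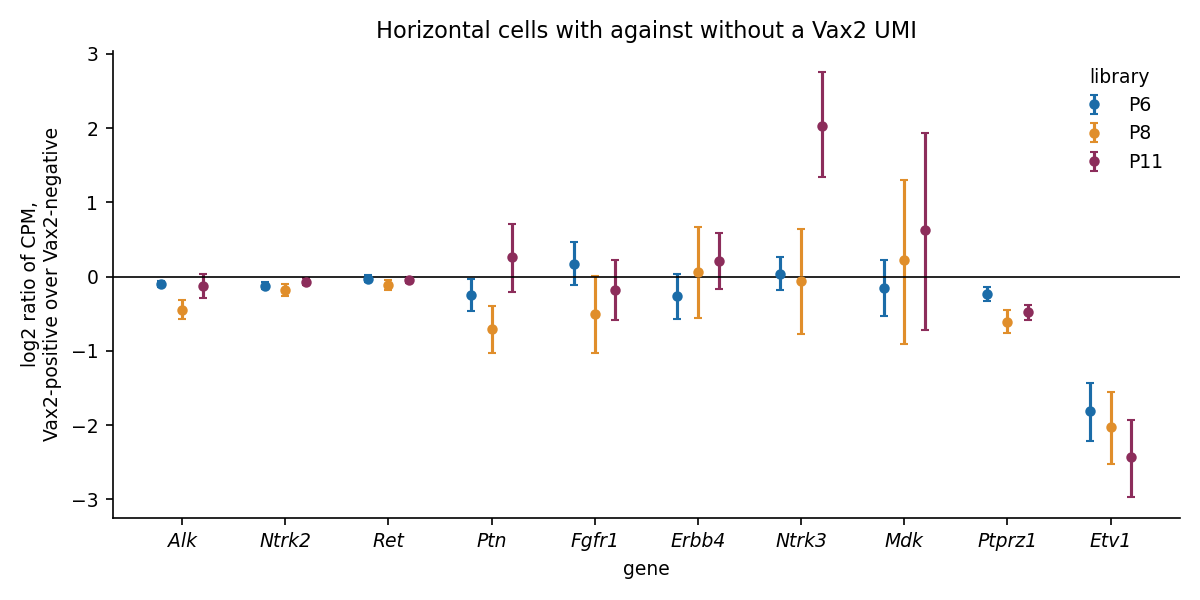
Log2 ratio of CPM in cells with over cells without a Vax2 UMI, for the 8 genes and for Ptprz1 and Etv1, in each library with exact 95% counting intervals. Alk, Ntrk2 and Ret lie between -0.45 and 0, Etv1 lies at -1.81 or below, and Ntrk3 at P11 stands at 2.03.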

How the data were processed

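The deposited values are the authors' raw UMI counts per gene and barcode. Per the submitters' processing notes, Cell Ranger 7.1.0 and mm10 were used. The sources used here do not give the annotation release or the treatment of intron reads. Gene positions came from GENCODE vM21 (mm10).

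For each library the counts of its horizontal cells were added up and scaled to their total UMIs. The 95% intervals are exact: Poisson for levels, conditional binomial for ratios, and Clopper-Pearson for shares. No doublets were removed from the main values. A count of 0 entered a ratio across genes as 3 counts. Thinning drew UMIs without replacement.

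The Vax2 contrast used edgeR 4.0.16 (filterByExpr, TMM, quasi-likelihood test) in R 4.3.3 on 6 sums, checked on simulated data, with DESeq2 1.42.0 as an alternative. Each library gives both classes, so libraries pair them. Nothing in the labels says that the libraries came from separate animals. The p-values therefore measure only how evenly the class difference repeated over these libraries, which differ in age.

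The members and lists were chosen with earlier results of these data known. Named by rule were all 8 members, the list genes farthest beyond 2-fold from P6 to P11 (at most 2 each way, 5 for receptor tyrosine kinases), up to 3 list genes each way by p for Vax2, and the 5 genes nearest to Alk. Other genes were named for their role. Alternatives covered scaling, cell filters, doublet removal with scanpy 1.11.5, thinning, the CPM minimum, the test, and leaving out each library.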

Additional observations from a re-analysis of the deposited data

Results flagged for a closer look

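Barcodes below the minimum of 1000 genes, which the comparisons did not use, also carried Alk, Ntrk2 and Ret. There were 1513, 1034 and 408 of them in the P6, P8 and P11 libraries, with median depths of 819, 717 and 885 UMIs. Alk stood there at 316 CPM (287 to 347), 20.1 CPM (11.7 to 32.1) and 18.0 CPM (7.24 to 37.1), on 441, 17 and 7 UMIs, so the P6 level lay above those of P8 and P11, as in horizontal cells. At P8 it was below the horizontal cells' interval. Ntrk2 stood at 173, 117 and 147 CPM, again lowest at P8. Ret stood at 219, 265 and 270.1 CPM, above the horizontal cells' intervals at P8 and P11 and without their low P8 value.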

How the results depend on the processing

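The Alk log2 ratio of P11 over P6 was -4.03 with TMM factors and -4.03 with median-of-ratios size factors, against -4.23, and -4.16 to -4.29 under the other settings. These scalings add 0.20 to every log2 ratio of P11 over P6, 0.28 or 0.32 to P8 over P6 and -0.08 or -0.12 to P11 over P8. Receptor tyrosine kinases then numbered 1 higher, with 3 lower; at 100 CPM 0 of 7 were higher and 3 lower, and with no minimum 3 of 58 were higher and 20 lower. The share of cells with an Alk UMI was 69.9%, 37.3% and 16.9% without thinning and 53.5%, 15.2% and 5.34% at 5000 UMIs. For Vax2, DESeq2 gave 64 genes higher and 162 lower, with 0 and 4 of the list genes, and thinned cells gave 16 and 73, with 0 and 2. Without a low-count filter 603 genes were lower. Leaving out each library in turn gave 28 to 162 genes higher and 110 to 481 lower, and 0 to 1 and 3 to 8 list genes, each lowest value being that without P8. Without the library as replicate block edgeR passed 0 genes higher and 0 lower (5 and 36 at an unadjusted p under 0.05), and 0 list genes either way. The cause of these changes was not tested. Depth limits Mdk and Ntrk3 at P8 and P11 most, at 23 to 82 UMIs per library.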
